A study of Mus musculus with 9 samples.

Results

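The genes that make, bind and break down retinoic acid were followed in cultured cardiac fibroblasts of adult mice after knockdown of Gata4 or Tbx20. They are 9 of the 38924 genes in the deposited table. They were chosen by their gene symbols with earlier results of these libraries in view, so that their differences between groups are given here as a description and are not independent evidence. The cells came from RosaCas9-EGFP animals of 8 to 10 weeks, labelled Cas9GFP on a C57BL/6 background, and so all 3 groups, controls included, carried Cas9, the nuclease that guide RNAs direct, together with green fluorescent protein. They were cultured for 3 days, sorted as CD90-positive cells that lacked the leukocyte marker CD45 and the endothelial marker CD31, replated, and transfected with guide RNAs 6 days later at 80 to 90% confluency. The groups were control (scrambled guides), Gata4 KD (2 guides against Gata4) and Tbx20 KD (2 guides against Tbx20), with 3 libraries each, named a, b and c. Each library held transfected cells together with any that took up no guide. The study describes the 3 libraries of a condition as biological replicates, and since nothing in the labels ties a library to an animal, a culture or a date, p-values measure the spread between these libraries.

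Retinoic acid is made from vitamin A inside the cell. Retinol is oxidised reversibly to retinaldehyde, a step that Dhrs3 runs backwards, and the retinaldehyde dehydrogenases Aldh1a1, Aldh1a2 and Aldh1a3 then oxidise retinaldehyde irreversibly to retinoic acid. Crabp2 carries retinoic acid to the nuclear receptors Rara, Rarb and Rarg, which bind DNA with a retinoid X receptor as partner, and the cytochrome P450 enzyme Cyp26b1 breaks it down. In the embryonic heart Aldh1a2 is the main source of retinoic acid, and the epicardium makes both Aldh1a2 and Aldh1a1.

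The sequences of the 4 targeting guides are shown because they define the knockdowns. Each was matched to the annotated transcripts on GRCm38 and lay wholly in coding sequence of 1 gene, and neither scrambled guide matched any transcript. The 3 bases of the protospacer-adjacent motif that follow each site are in capitals. The Gata4 guides lay in exon 3 (chr14:63204711-63204730, minus strand) and exon 2 (chr14:63240581-63240600, plus strand) of 7, and the Tbx20 guides exon 2 (chr9:24770708-24770727, minus strand) and exon 4 (chr9:24765732-24765751, plus strand) of 8.
Gata4_sgRNA1: cagagagtgtgtcaattgtgGGG
Gata4_sgRNA3: gcaggactgggctgtcgaagGGG
Tbx20_sgRNA2: caaattccatgaactgggcaCGG
Tbx20_sgRNA3: gagctgctcgccagtaaaggGGG

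Both targets encode transcription factors, and the retinoic acid receptors are transcription factors too. The promoters of Cyp26b1, Aldh1a1 and Rarb are therefore printed, as the 250 bases before each start that RefSeq (GRCm38.p6) gives for them. Letters in capitals mark matches, on either strand, to a GATA motif (AGATAA or TGATAA), a T-box motif (AGGTGT) or a retinoic acid receptor hexamer (AGGTCA, with AGTTCA counted as well, and further GGGTCA together with GGTTCA). Of 32851 promoters of the same length, 16.6% held the GATA motif, 11.8% the T-box motif and 38.6% a receptor hexamer. The Cyp26b1 promoter (chr6:84593811-84594060, minus strand) held no match to any of them. It overlaps the first bases of the gene as annotated for the counts, which begins at 84593908 on this strand.
Cyp26b1: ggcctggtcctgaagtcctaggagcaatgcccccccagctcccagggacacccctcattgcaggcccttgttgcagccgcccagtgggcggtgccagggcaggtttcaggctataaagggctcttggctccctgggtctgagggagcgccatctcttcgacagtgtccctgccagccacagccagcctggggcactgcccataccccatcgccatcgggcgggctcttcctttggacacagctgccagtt

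The upstream start of Aldh1a1 (chr19:20492333-20492582, plus strand) had a T-box match 190 bases before it, on the opposite strand. The downstream start (chr19:20601718-20601967, plus strand) had a T-box match at 123 bases, a receptor hexamer on the opposite strand at 49 bases and a GATA match at 32 bases before it.
Aldh1a1 upstream start: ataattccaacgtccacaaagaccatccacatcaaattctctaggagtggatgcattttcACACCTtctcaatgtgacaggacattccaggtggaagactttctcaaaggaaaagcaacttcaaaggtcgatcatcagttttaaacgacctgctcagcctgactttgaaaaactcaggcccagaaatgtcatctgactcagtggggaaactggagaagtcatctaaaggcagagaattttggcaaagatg
Aldh1a1 downstream start: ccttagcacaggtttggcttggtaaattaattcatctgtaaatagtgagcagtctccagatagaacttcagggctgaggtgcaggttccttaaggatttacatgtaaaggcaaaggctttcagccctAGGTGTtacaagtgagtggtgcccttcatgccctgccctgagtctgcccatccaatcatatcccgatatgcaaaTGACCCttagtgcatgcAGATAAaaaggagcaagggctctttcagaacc

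In the Rarb promoter (chr14:16575477-16575726, minus strand) a pair of hexamers in the same direction with 5 bases between them began 53 bases before the start, the arrangement that the receptors are known to bind. Such a pair, of any combination of the 4 hexamers, occurred in 0.0883% of the promoters. A further hexamer lay 83 bases before the start. This start lies inside the gene as annotated for the counts (chr14:16430839-16819156), and the bases before the gene's outermost start were not searched.
Rarb: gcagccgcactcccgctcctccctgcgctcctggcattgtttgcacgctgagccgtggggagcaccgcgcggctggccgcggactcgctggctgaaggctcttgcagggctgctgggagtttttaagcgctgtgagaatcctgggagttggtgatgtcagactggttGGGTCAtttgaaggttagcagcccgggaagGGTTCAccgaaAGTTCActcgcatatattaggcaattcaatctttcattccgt

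The table of promoters held 14 starts of 7 of the genes, with none for Aldh1a3 or Crabp2. Matches to the GATA motif stood at 2 of the 14 starts, the downstream starts of Aldh1a1 and Rarg, and 7 starts had no match of any kind. A match of letters is no measure of binding.

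Total counts ran from 31214828 to 41950397 per library (median 36270725). Levels are given as CPM, counts relative to the library's total after TMM scaling over the 9 libraries, and as RPKM, the same per kilobase of exon, where genes are compared with each other. Gata4 stood at 164, 156 and 166 CPM in the control libraries a, b and c, at 53.7, 47.2 and 65.2 CPM in Gata4 KD and at 178, 192 and 199 CPM in Tbx20 KD. Tbx20 stood at 1001, 1288 and 714 CPM in control, at 321, 427 and 429 CPM in Tbx20 KD and at 670, 518 and 904 CPM in Gata4 KD. Both targets were lowest in the libraries that received their guides. Genes are described as called where edgeR's quasi-likelihood test, fitted across all genes with Benjamini-Hochberg adjustment, gave an adjusted p (edgeR adjusted p) under 0.05. Gata4 was called in Gata4 KD against control (log2 fold change -1.55, SE 0.12, edgeR adjusted p = 0.00272), and Tbx20 was not in Tbx20 KD against control (-1.35, SE 0.21, edgeR adjusted p = 0.748).

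Fibroblast markers were high, with Col1a1 at 609 and Pdgfra at 44.8 RPKM in control. Of the 8 on the list 0 were called in Gata4 KD against control, where 0.380% of all genes were. Col1a1 (log2 fold change -0.35, edgeR adjusted p = 0.423) and Tcf21 (-0.61, edgeR adjusted p = 0.337) were lower in Gata4 KD without overlap of the libraries. They are 25.0% of the 8, against 14.0% of all genes. By sign 6 of the 8 were lower and 2 higher, Pdgfra (0.37, edgeR adjusted p = 0.485) and Pdgfrb (0.35, edgeR adjusted p = 0.665), both with overlap. Markers of other cells were present as well. Among those of cells that the sort removes, the leukocyte gene Lyz2 stood at 14.5 and the endothelial gene Tek at 5.93 RPKM in control. The 5 leukocyte markers summed to 35.2 to 42.3 CPM in control, 23.8 to 38.6 CPM in Gata4 KD and 35.2 to 49.3 CPM in Tbx20 KD, and the 5 endothelial markers to 36.1 to 54.8, 37.1 to 54.7 and 40.7 to 51.5 CPM. Both sums overlapped between groups, while the endothelial gene Kdr was higher in the Gata4 KD libraries (log2 fold change 0.97, edgeR adjusted p = 0.0996 against control and 0.90, edgeR adjusted p = 0.0258 against Tbx20 KD). Vwf was higher without overlap against Tbx20 KD alone (0.62, edgeR adjusted p = 0.0789), and Tek was lower with overlap in both (-0.34 and -0.48). Pecam1, the gene of CD31, was higher with overlap in both (0.58 and 0.36). The leukocyte gene Csf1r was lower in Gata4 KD without overlap (-0.64, edgeR adjusted p = 0.236 against control and -0.40, edgeR adjusted p = 0.293 against Tbx20 KD), and Cd14 was higher with overlap (0.36 and 0.21). By sign 4 of the 5 endothelial markers were higher and 1 lower in Gata4 KD against control, and 3 higher and 2 lower against Tbx20 KD. Of the 5 leukocyte markers 2 were higher and 3 lower against control, and 1 higher and 4 lower against Tbx20 KD. The 4 mural markers summed to 8.52 to 10.3 CPM in control, 10.6 to 13.9 CPM in Gata4 KD and 8.73 to 9.74 CPM in Tbx20 KD, so that Gata4 KD lay above both without overlap, with 0 of the 4 called and Rgs5 at a log2 fold change of 0.93 (edgeR adjusted p = 0.265). Over the 12 mesothelial and epicardial markers in the table (of 13 listed) the summed level was 28.5 to 51.8 CPM in control, 11.3 to 20.6 CPM in Gata4 KD and 30.1 to 46.9 CPM in Tbx20 KD, with Msln, Calb2, Krt8 and Rspo1 at 0 in some libraries. In Gata4 KD against control 1 of the 8 tested, Lrrn4, was called and lower (log2 fold change -3.38, SE 0.27, edgeR adjusted p = 0.00272). Without Lrrn4 the sums overlapped, at 12.7 to 19.6 CPM in control, 9.03 to 18.5 CPM in Gata4 KD and 10.3 to 14.9 CPM in Tbx20 KD, and Krt19, the next in abundance, had a log2 fold change of 0.35 (edgeR adjusted p = 0.842). Bnc1 was higher without overlap (log2 fold change 0.93, SE 0.29, edgeR adjusted p = 0.344). Upk3b (-1.51, edgeR adjusted p = 0.247), Upk1b (-1.16, edgeR adjusted p = 0.201) and Gpm6a (-1.84, edgeR adjusted p = 0.139) were lower without overlap, as Lrrn4 was. Of the 8 tested, 5 (62.5%) were so separated from control, 4 of them lower, against 14.0% of all genes. Gpm6a was also called and lower against Tbx20 KD (-1.905, edgeR adjusted p = 0.0225). Over the 6 cardiomyocyte markers the summed level was 23.5 to 30.4 CPM in control, 8.03 to 9.18 CPM in Gata4 KD and 21.5 to 25.8 CPM in Tbx20 KD. Nearly all of it was Tnnt2, which was called and lower in Gata4 KD (log2 fold change -1.64, SE 0.13, edgeR adjusted p = 0.00272). Nppa had 0 counts in all 9 libraries. Myh6 and Actc1 had 2 and 9 counts over all 9, with 0 in some. The part of any of these cell types in the levels of the 9 genes, among them Aldh1a1 and Aldh1a2, which the epicardium makes as well, was not tested. In bulk RNA fewer cells of a type and less RNA per cell cannot be told apart.

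Of the 3 genes of synthesis, Aldh1a1 and Aldh1a2 led the retinoic acid genes in control cells and Aldh1a3 did not. Per kilobase, Aldh1a1 was the highest of the 9 at 53.3 ± 2.66 RPKM (SD, n = 3), followed by Aldh1a2 at 29.4 ± 5.14 RPKM (SD, n = 3). Rarg (12.4 ± 0.113 RPKM) and Cyp26b1 (11.5 ± 1.11 RPKM) came next with overlapping SD ranges. The ranges of Rara (5.33 ± 0.612 RPKM) and Dhrs3 (4.74 ± 2.02 RPKM) also overlapped, as did those of Dhrs3 and Aldh1a3 (2.45 ± 0.684 RPKM). Rarb (1.37 ± 0.154 RPKM) and Crabp2 (0.284 ± 0.0983 RPKM) were lowest. In Gata4 KD the first places changed per kilobase, while in CPM Aldh1a1 stayed the highest of the 9. Aldh1a2 stood at 49.5 ± 14.9 RPKM (SD, n = 3), Aldh1a1 at 35.6 ± 4.32 RPKM and Cyp26b1 at 30.5 ± 1.71 RPKM, each overlapping its neighbour within the SD, and Rarg followed at 10.95 ± 1.32 RPKM. Tbx20 KD kept the order of control for the first 2 genes, with Aldh1a1 at 56.2 ± 3.08 RPKM and Aldh1a2 at 32.9 ± 8.27 RPKM. There Cyp26b1, at 13.2 ± 0.799 RPKM, and Rarg, at 12.3 ± 0.941 RPKM, again had overlapping ranges. The other 5 genes stayed below Rarg in every group, and Dhrs3 stood above Rara only in Tbx20 KD (6.17 ± 2.35 against 5.33 ± 0.125 RPKM), with overlapping ranges.

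**Figure D1:**
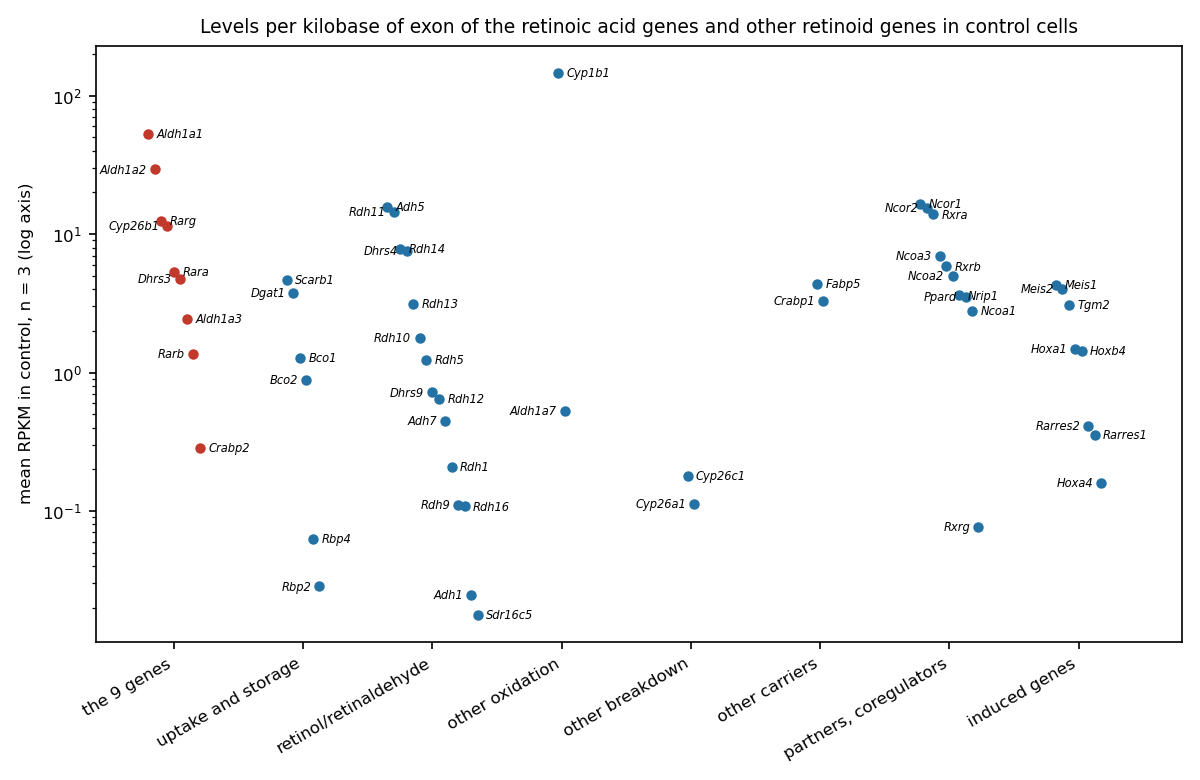
Mean RPKM in the 3 control libraries (log axis) of the 9 retinoic acid genes (red) and of other retinoid genes grouped by role (blue), each point 1 gene. Aldh1a1 (53.3 RPKM) and Aldh1a2 (29.4 RPKM) lead the 9 genes, and Cyp1b1 (147 RPKM) is the highest of the others drawn. The 11 genes under 0.01 RPKM and 1 further listed gene are not drawn.

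All 9 genes passed the filter on low counts in every comparison. In Gata4 KD against control edgeR's quasi-likelihood test called 1 of the 9, Cyp26b1, against 0.380% of all 14468 genes tested. At an unadjusted p under 0.05 there were 4 of the 9, where 8.54% of all genes passed, and for 4 of the 9 the libraries of the 2 groups did not overlap, where 14.0% of all genes were so separated. These were the same 4 genes, Cyp26b1 and Aldh1a2 higher and Aldh1a1 and Rarb lower. Since the genes were chosen with this contrast known, nothing is read from these shares. The median log2 fold change of the 9 was -0.18, and that of all genes tested -0.02.

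In Tbx20 KD against control 0 of the 9 were called by edgeR's quasi-likelihood test, by DESeq2, by limma-voom or by edgeR's exact test, and 0 of the 9 had an unadjusted p under 0.05. Over all 14547 genes 0.00687% were called, a single gene, and 2.69% had an unadjusted p under 0.05. For Cyp26b1 alone of the 9 the libraries did not overlap, where 6.96% of all genes were separated. Both knockdowns were set against the same 3 control libraries. The direct comparison of Gata4 KD with Tbx20 KD uses none of them. It called 2 of the 9 in edgeR's quasi-likelihood test, Cyp26b1 and Aldh1a1, against 1.44% of 14477 genes. There 5 of the 9 had an unadjusted p under 0.05 (16.7% of all genes), and 4 of the 9 did not overlap (23.1% of all genes).

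**Figure D2:**
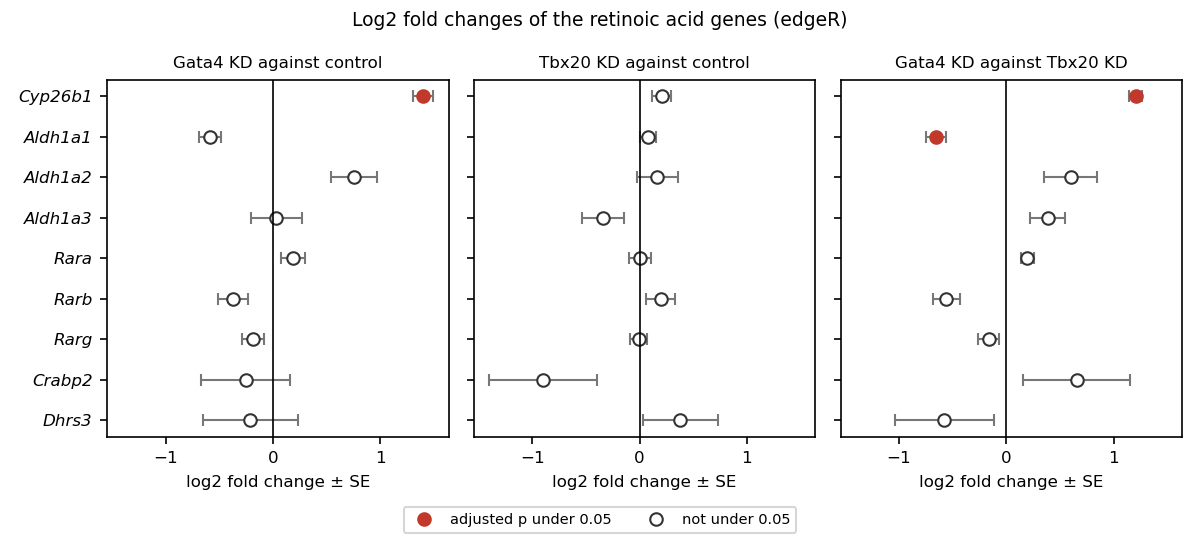
Log2 fold change (points) with its SE (whiskers) of the 9 genes in the 3 comparisons, from edgeR's quasi-likelihood fit, filled where the adjusted p was under 0.05. Cyp26b1 stands at 1.40 and 1.21 in the 2 comparisons with Gata4 KD and at 0.20 in Tbx20 KD against control, and Aldh1a1 lies on the other side of 0 in both comparisons with Gata4 KD.

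Of the 9 genes, Cyp26b1, the gene of breakdown, had the largest log2 fold change in both comparisons with Gata4 KD, while in Tbx20 KD against control Crabp2, Dhrs3 and Aldh1a3 had larger ones. Cyp26b1 (ENSMUSG00000063415, chr6:84571414-84593908, minus strand) had 55.9, 61.2 and 67.8 CPM in the control libraries, 160, 174 and 156 CPM in Gata4 KD and 75.7, 67.8 and 68.9 CPM in Tbx20 KD. The lowest Gata4 KD library, at 156 CPM, was far above the highest of the other 6, at 75.7 CPM. The mean was 61.6 ± 5.94 CPM (SD, n = 3) in control and 163 ± 9.16 CPM (SD, n = 3) in Gata4 KD, a 2.64-fold difference (log2 fold change 1.40, SE 0.09). It ranked 3 of 14468 by p, directly before Gata4 itself, and 72 by the size of the change, with an edgeR adjusted p of 0.00114. Against Tbx20 KD the log2 fold change was 1.21 (SE 0.06, edgeR adjusted p = 0.000625). Leaving out any 1 library kept the value between 1.34 and 1.48 against control, and the highest adjusted p that this gave was 0.0187. In Tbx20 KD the mean was 70.8 ± 4.28 CPM (SD, n = 3). The log2 fold change against control was 0.20 (SE 0.09, edgeR unadjusted p = 0.053, adjusted p = 1.0), and the lowest Tbx20 KD library, at 67.80 CPM, was barely above the highest control, at 67.77 CPM. The other enzymes of this family were near the limit of detection. Cyp26a1, which clears retinoic acid in the embryo and liver, had 72 counts and Cyp26c1 96 counts over all 9 libraries, while Cyp26b1 had at least 2073 in each.

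The most abundant dehydrogenase of control cells was lower in Gata4 KD than in either other group. Aldh1a1 (ENSMUSG00000053279, chr19:20492715-20643465, plus strand) had 270, 272 and 248 CPM in control, 165, 162 and 200 CPM in Gata4 KD and 262, 292 and 278 CPM in Tbx20 KD. The 3 Gata4 KD libraries were the lowest of the 9, and control and Tbx20 KD overlapped. In Gata4 KD the difference from control was -33.4% (log2 fold change -0.59, SE 0.10), which missed the threshold in edgeR's quasi-likelihood test (edgeR adjusted p = 0.075). It passed with DESeq2 (0.000149), with edgeR's exact test (0.000304), without the filter (0.0223), with all 9 libraries in 1 fit (0.0188) and without Gata4 KD c (0.0345). It did not pass with limma-voom (0.0753), with scaling by library size alone (0.0638) or with the replicate letter as a block (0.302). The adjusted p went up to 0.422 when other libraries were left out. Against Tbx20 KD the log2 fold change was -0.65 (SE 0.09, edgeR adjusted p = 0.0242). That call was lost without Gata4 KD a (edgeR adjusted p = 0.133), Gata4 KD b (0.0821), Tbx20 KD b (0.133) or Tbx20 KD c (0.132), with the value between -0.77 and -0.59 throughout.

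Aldh1a7, a close copy of Aldh1a1 further along chromosome 19, was counted at 47, 41 and 29 in control, 17, 21 and 23 in Gata4 KD and 44, 35 and 40 in Tbx20 KD. Its Gata4 KD libraries were also the lowest of the 9 (log2 fold change against control -0.91, SE 0.26, edgeR adjusted p = 0.299). Of the 75-base windows of Aldh1a1 transcripts 1.01% occurred in another gene, and of Aldh1a7 2.51%. Reads from those windows are divided between the 2 genes by the counting, so the small counts of Aldh1a7 are uncertain.

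Aldh1a2 (ENSMUSG00000013584, chr9:71215789-71296243, plus strand) had 66.1, 78.3 and 55.1 CPM in control, 110, 79.6 and 147 CPM in Gata4 KD and 55.7, 93.1 and 74.3 CPM in Tbx20 KD. The Gata4 KD libraries were all above the controls, but Gata4 KD b, at 79.6 CPM, was close to control b, at 78.3 CPM, and Tbx20 KD overlapped with both. The log2 fold change of 0.75 (SE 0.22) against control was not called (edgeR adjusted p = 0.298), and the calls by DESeq2 (0.0235) and edgeR's exact test (0.0474) were the only ones among its alternatives. Without Gata4 KD c it was 0.53, and without Gata4 KD b 0.95. Against Tbx20 KD it was 0.60 (SE 0.25, edgeR adjusted p = 0.289). Aldh1a3 (ENSMUSG00000015134, chr7:66390890-66427517, minus strand), the third enzyme of this step, varied as much within groups as between them, with 14.0, 7.83 and 12.2 CPM in control, 14.5, 9.25 and 11.2 CPM in Gata4 KD and 9.49, 8.29 and 8.99 CPM in Tbx20 KD. Its log2 fold change was 0.03 (SE 0.24) in Gata4 KD and -0.34 (SE 0.20) in Tbx20 KD against control.

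With Aldh1a1 lower and Aldh1a2 higher in Gata4 KD, the make-up of the dehydrogenases differed while their sum stayed within its spread. Summed RPKM of the 3 genes was 85.2 ± 7.20 (SD, n = 3) in control, 87.6 ± 19.1 in Gata4 KD and 91.0 ± 11.2 in Tbx20 KD. Aldh1a1 made up 60.3 to 65.1% of it in the control libraries, 37.6 to 46.9% in Gata4 KD and 58.0 to 66.6% in Tbx20 KD. The share of Aldh1a2 was 31.5 to 37.9% in control, 50.2 to 60.2% in Gata4 KD and 30.9 to 40.3% in Tbx20 KD. Per kilobase, Aldh1a2 was thus the larger of the pair in every Gata4 KD library, and Aldh1a1 was in every other library. This order depends on the exon lengths used, 4937 bases for Aldh1a1 and 2264 for Aldh1a2. In CPM, Aldh1a1 was the higher of the pair in all 9 libraries. A comparison of 3 with 3 such shares was not tested.

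**Figure D3:**
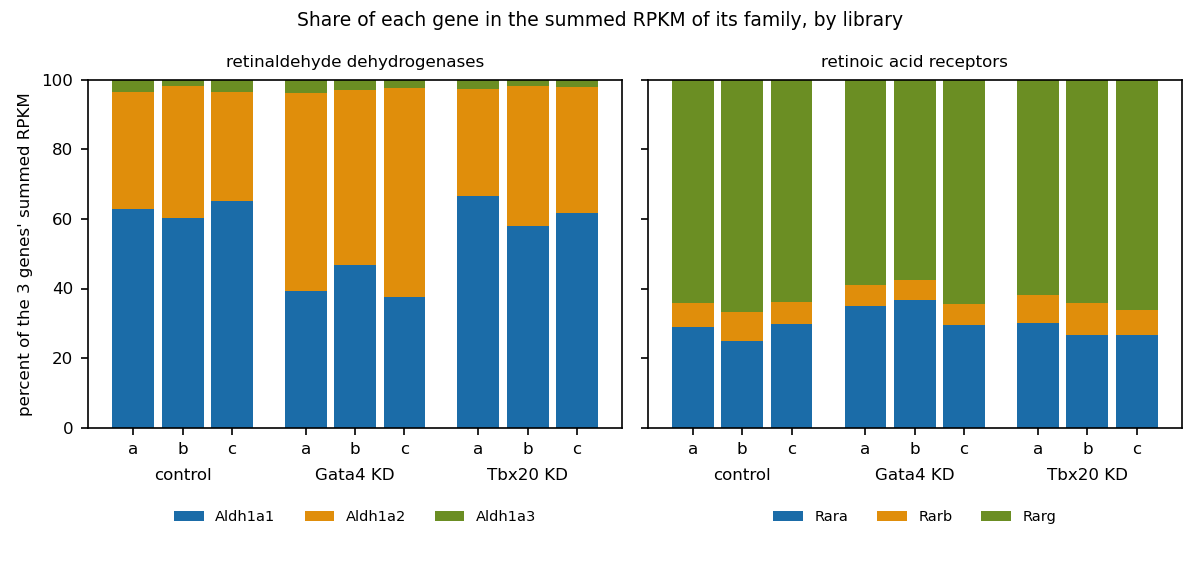
Share of each gene, in percent, in the summed RPKM of the 3 retinaldehyde dehydrogenases (left) and the 3 retinoic acid receptors (right), 1 bar for each library. Aldh1a2 takes 50.2 to 60.2% in the Gata4 KD libraries and at most 40.3% in the others, while Rarg leads the receptors in all 9.

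Dhrs3 (ENSMUSG00000066026, chr4:144892827-144928209, plus strand), which returns retinaldehyde to retinol, had 12.9, 20.2 and 8.49 CPM in control, 9.43, 6.03 and 20.5 CPM in Gata4 KD and 10.4, 23.7 and 20.0 CPM in Tbx20 KD. The highest library was 2.38 times the lowest in control, 3.39 times in Gata4 KD and 2.28 times in Tbx20 KD, and the groups overlapped. The log2 fold change was -0.21 (SE 0.44) in Gata4 KD against control, -0.83 without Gata4 KD c and 0.15 without control b. It was 0.38 (SE 0.35) in Tbx20 KD against control. Crabp2 (ENSMUSG00000004885, chr3:87948666-87953376, plus strand), the carrier, was scarcely detected, with 19, 9 and 12 counts in control, 9, 16 and 8 in Gata4 KD and 14, 5 and 4 in Tbx20 KD. A difference in Crabp2 was not detectable at this depth (log2 fold change -0.26, SE 0.42 in Gata4 KD and -0.90, SE 0.50 in Tbx20 KD against control). Of the other carriers, Crabp1 stood at 3.27 and Fabp5 at 4.35 RPKM in control.

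**Figure D4:**
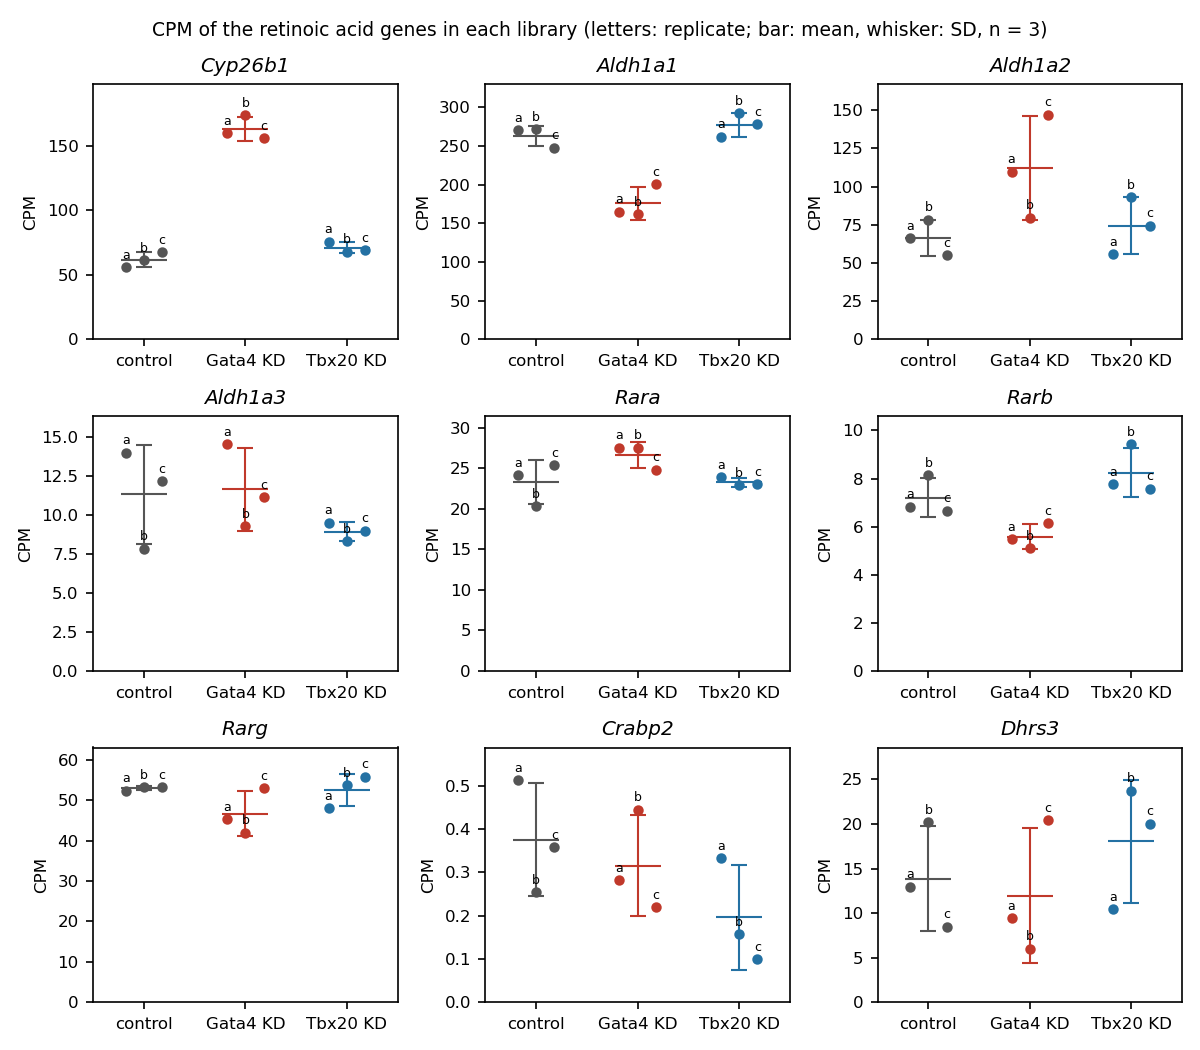
CPM of the 9 genes in each of the 9 libraries (points, letters naming the replicate) with the mean and SD of each group (n = 3). The Gata4 KD libraries of Cyp26b1 sit at 156 to 174 CPM, apart from all others, those of Aldh1a1 and Rarb are the lowest of the 9, and those of Dhrs3 spread from 6.03 to 20.5 CPM.

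Among the receptors, Rarg was the most abundant and Rarb the scarcest in every group. Rarb (ENSMUSG00000017491, chr14:16430839-16819156, minus strand), whose promoter holds the hexamer pair shown above and which retinoic acid is known to induce, had 6.83, 8.14 and 6.66 CPM in control, 5.48, 5.11 and 6.14 CPM in Gata4 KD and 7.76, 9.42 and 7.58 CPM in Tbx20 KD. The Gata4 KD libraries were the lowest of the 9. The log2 fold change was -0.37 (SE 0.14, edgeR adjusted p = 0.482) against control and -0.56 (SE 0.13, edgeR adjusted p = 0.087) against Tbx20 KD. The latter passed with DESeq2 (0.0113), with edgeR's exact test (0.0104) and without Gata4 KD c (0.0404). Rara (ENSMUSG00000037992, chr11:98927818-98974942, plus strand), the receptor found in most tissues, had 24.2, 20.3 and 25.4 CPM in control, 27.5, 27.5 and 24.8 CPM in Gata4 KD and 23.9, 22.9 and 23.0 CPM in Tbx20 KD. It overlapped between Gata4 KD and control (log2 fold change 0.19, SE 0.11) and was narrowly separated from Tbx20 KD, with 24.8 CPM in the lowest Gata4 KD and 23.9 CPM in the highest Tbx20 KD library (0.20, SE 0.06, edgeR adjusted p = 0.184). Rarg (ENSMUSG00000001288, chr15:102234938-102257517, minus strand), a receptor that mesenchyme and skin are known to express, had 52.4, 53.2 and 53.2 CPM in control, 45.2, 41.9 and 52.9 CPM in Gata4 KD and 48.0, 53.6 and 55.8 CPM in Tbx20 KD. Its groups overlapped, with a log2 fold change of -0.18 (SE 0.10) in Gata4 KD and -0.01 (SE 0.08) in Tbx20 KD against control. Summed over the 3 receptors the level was 19.1 ± 0.445 RPKM (SD, n = 3) in control, 18.1 ± 1.08 RPKM in Gata4 KD and 19.2 ± 0.868 RPKM in Tbx20 KD.

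Around the 9 genes, 57 further retinoid genes of a list of 58 were in the table, and 40 of them had counts enough to be tested. In Gata4 KD against control 0 of the 40 were called by edgeR's quasi-likelihood test or limma-voom and 1, Bco1, by DESeq2 and by edgeR's exact test. At an unadjusted p under 0.05 there were 4 (10.0%, against 8.54% of all genes), Dgat1 and Cyp1b1 higher and Bco1 and Aldh1a7 lower, and the median log2 fold change over the 40 was 0.02. Bco1, which cleaves beta-carotene to retinaldehyde, had 4.18, 2.29 and 3.29 CPM in control, 0.971, 1.06 and 1.32 CPM in Gata4 KD and 2.42, 1.88 and 2.11 CPM in Tbx20 KD. It was lowest in the 3 Gata4 KD libraries, with a log2 fold change of -1.54 (SE 0.27, edgeR adjusted p = 0.0748) against control and -0.93 (SE 0.19, edgeR adjusted p = 0.0701) against Tbx20 KD. Cyp1b1, a cytochrome P450 that can oxidise retinol and retinaldehyde, was the most abundant retinoid gene at 147 RPKM in control, and had a Gata4 KD to control difference of 0.36 on the log2 scale (SE 0.13, edgeR adjusted p = 0.449).

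In Tbx20 KD against control 0 of the 40 were called by any of the 4 tools, and 1, Bco1, had an unadjusted p under 0.05 (2.5% of the 40, against 2.69% of all genes). In the direct comparison 0 were called by edgeR's quasi-likelihood test or limma-voom and 2 each by DESeq2 (Bco1 and Cyp1b1) and edgeR's exact test (Bco1 and Aldh1a7). There 8 of the 40 (20.0%, against 16.7% of all genes) had an unadjusted p under 0.05, a share near that of all genes. By role, the most abundant genes in control were the dehydrogenases Adh5 (15.7 RPKM) and Rdh11 (14.4 RPKM) for the exchange of retinol and retinaldehyde, Fabp5 among carriers, and the corepressor Ncor1 (16.5 RPKM) and the partner receptor Rxra (13.9 RPKM) among partners and coregulators. Of 12 genes known to be induced by retinoic acid 11 were in the table and 8 tested. The highest in control, Meis1, was at 4.28 RPKM, and 0 of the 8 had an unadjusted p under 0.05 in Gata4 KD against control (8.54% of all genes did). There Tgm2 and Meis1 were lower in Gata4 KD without overlap (25.0% of the 8, against 14.0% of all genes), with log2 fold changes of -0.31 (SE 0.15) and -0.14 (SE 0.07), and the same 2 were lower against Tbx20 KD at an unadjusted p under 0.05 (25.0%, against 16.7% of all genes), with -0.37 (SE 0.14, edgeR adjusted p = 0.247) and -0.19 (SE 0.05, edgeR adjusted p = 0.104). The retinol receptor Stra6 and the esterifying enzyme Lrat had 9 and 4 counts over all 9 libraries.

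Likeness of pattern was measured as Pearson's r of log2 CPM over the 9 libraries, among the 10518 genes with a mean of at least 5 CPM, and is a description, since libraries of a group share their treatment. Closest to Cyp26b1 were Dio2 (r = 0.985), Tpbg (0.975), Tmcc3 (0.964), Dlc1 (0.962) and Npnt (0.962). Dio2, which activates thyroid hormone, stood at 6.00 CPM in control, 79.4 CPM in Gata4 KD and 7.20 CPM in Tbx20 KD. After the group means were subtracted these 5 had r of -0.30 to 0.39 with Cyp26b1, so the likeness was that of the group means. Closest to Aldh1a1 were Klhl6 (r = 0.992), Ablim1 (0.991), Peg10 (0.985), Stc2 (0.981) and Nr1h4 (0.980), which kept r of 0.85 to 0.96 once group means were subtracted.

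Several of the 9 genes also varied together within groups. With group means subtracted, Aldh1a2 and Dhrs3 had r = 0.974, Aldh1a1 and Dhrs3 0.922, and Aldh1a1 and Aldh1a2 0.891. Tbx20 had r = 0.966 with Dhrs3 and 0.913 with Aldh1a2. On the other side, Dhrs3 had r = -0.799 with Rara and -0.712 with Cyp26b1. Dhrs3 spanned from -0.80 in Gata4 KD b to 0.95 in Gata4 KD c on the log2 scale around the mean of its group, and from -0.62 in control c to 0.63 in control b. Cyp26b1 stayed within 0.14 of its group mean in all 9 libraries. The same libraries, Gata4 KD c, control b and Tbx20 KD b, were the highest of their groups in Dhrs3 and Aldh1a2. This spread was not particular to the 9 genes. Sfrp1, the gene most like Dhrs3 over the 9 libraries, had r = 0.991 with it once group means were subtracted. The fibroblast marker Dcn was highest in the same libraries, at 188 CPM in control b, 195 CPM in Gata4 KD c and 200 CPM in Tbx20 KD b. The differences of Aldh1a2 and Dhrs3 between groups are therefore set against a spread shared with genes outside the 9, and that of Cyp26b1 against a much smaller one.

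**Figure D5:**
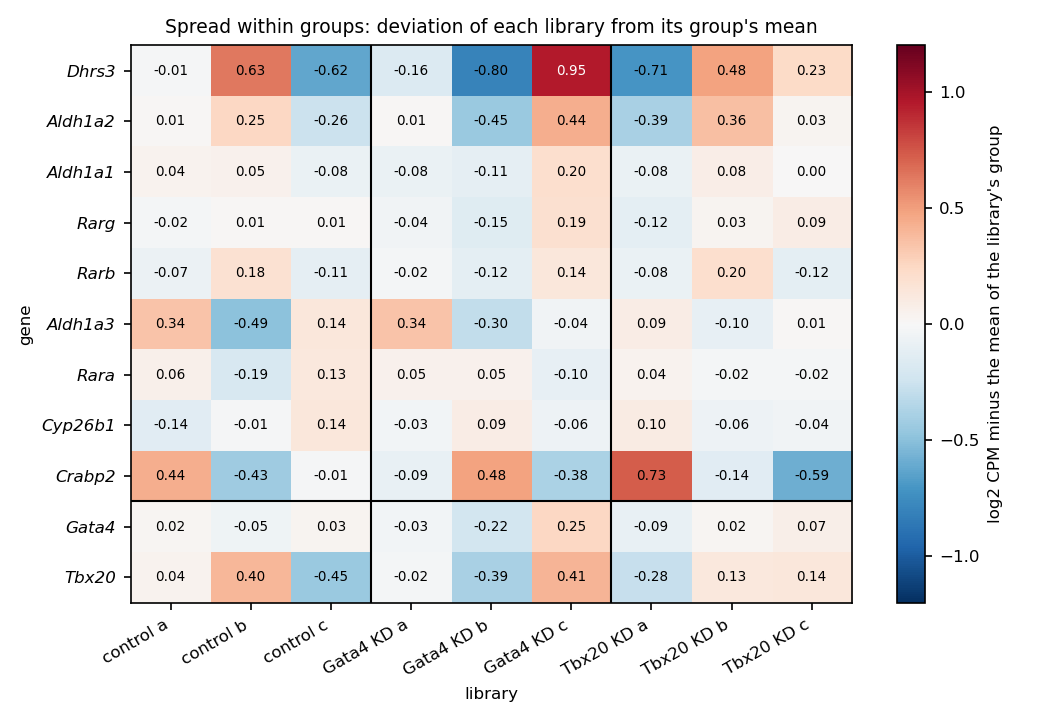
Log2 CPM of each gene in each library minus the mean of that library's group, for the 9 genes (upper rows) and for Gata4 and Tbx20 (lower rows). Dhrs3 runs from -0.80 to 0.95 and follows Aldh1a2 and Tbx20, while Cyp26b1 stays within 0.14.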

How the data were processed

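RNA of primary cardiac fibroblasts (9 libraries) was sequenced as 75-base single-end reads from an mRNA kit. The authors trimmed the reads, aligned them with Bowtie2 to GRCm38 and estimated abundances with RSEM, which shares reads that match several genes among them. The submitters' processing notes name the build mm9. The deposited table holds expected counts per gene as whole numbers, not normalized.

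Symbols and positions came from GENCODE M21 (GRCm38), which matched 37607 of 38924 gene IDs, promoters from RefSeq (GRCm38.p6) and guide sequences from the study's supplement. Each comparison was fitted on its 6 libraries in R 4.3.3 with edgeR 4.0.16 (filterByExpr, TMM, glmQLFit and glmQLFTest, no covariate), with Benjamini-Hochberg adjustment over all genes tested and a threshold of 0.05. Alternatives were DESeq2 1.42.0, limma-voom (limma 3.58.1), edgeR's exact test with tagwise dispersions, scaling by library size, no count filter, all 9 libraries in 1 fit, the replicate letter as a block, and each library left out in turn. The procedure was tested on simulated counts.

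The members and lists were chosen with earlier results of these data known. Named were the 9 members, the 2 targets, Aldh1a7, listed retinoid genes that passed the threshold or led their role in control, the 5 genes most like Cyp26b1 and Aldh1a1, and the gene most like Dhrs3. Other retinoid genes and the markers were named after their values were seen. Of the listed genes 1 enters the counts of its list and is not reported here by itself.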

Additional observations from a re-analysis of the deposited data

How the results depend on the processing

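The direction of Cyp26b1 and its call in Gata4 KD, against control and against Tbx20 KD, were kept in each of the 13 alternatives run. Of 350 fold changes of the 9 genes under an alternative, 12 had another sign than the reported one, all among values not called and of at most 0.18 on the log2 scale. The number of genes called depended on the tool. In Gata4 KD against control, where 55 were called, DESeq2 called 273, edgeR's exact test 250, the fit of all 9 libraries 148 and the fit without a filter 121, and 6 to 189 were called when a library was left out, most without control b. In Tbx20 KD against control (1 called) DESeq2 called 10, the exact test 8 and the fit without a filter 2, with 1 to 5 when a library was left out, most again without control b. In Gata4 KD against Tbx20 KD (208 called) they called 761, 729 and 324, with 22 without Gata4 KD a and 801 without Gata4 KD c. There the split of 118 higher and 90 lower became 90 higher and 112 lower under library size alone.

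Of the 9 genes, DESeq2 and the exact test called 3 in Gata4 KD against control (Cyp26b1, Aldh1a1 and Aldh1a2) and the fits without a filter or with all 9 libraries 2 (Cyp26b1 and Aldh1a1), with 1 to 2 when a library was left out. Against Tbx20 KD it was 1 to 3 when a library was left out. Of the other retinoid genes, Bco1 was the 1 called in Gata4 KD against control by DESeq2, the exact test, the fit without a filter and the fit of all 9 libraries, with 0 to 1 when a library was left out, and against Tbx20 KD DESeq2 and the exact test called 2, with 0 to 2 when a library was left out. The cause of these differences was not tested.

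Nothing in the labels says that the letters a, b and c mark shared cultures or days, and the letters were not taken as pairs because not every same-letter correlation was over 0.1. Deviations from the group means of libraries with the same letter had correlations of -0.17 to 0.25 across genes, and 6 of 9 libraries were closest to their own letter, which is a hint from the data and not the design. With the letter as a replicate block 5 genes were called in Gata4 KD against control, 2 in Tbx20 KD against control and 101 in Gata4 KD against Tbx20 KD, and the same members as without it, with Cyp26b1 at an adjusted p of 0.0345 in edgeR's quasi-likelihood test against control. With 3 libraries in each group and 4 to 19 counts for Crabp2, small differences could not be seen.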
